A study of Mus musculus with 7 samples.

Results

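Platelets are shed into the blood by megakaryocytes, large polyploid cells that sit against the sinusoids of the bone marrow. A small set of genes is transcribed mainly in this lineage, and its messenger RNA serves as a readout of the megakaryocyte and platelet material a piece of bone still holds. The 9 genes described here were chosen by symbol for this property: *Pf4* and *Ppbp*, the chemokines packed in platelet alpha granules; *Gp1ba*, *Gp1bb*, *Gp9* and *Gp5*, the parts of the von Willebrand factor receptor; *Gp6* and *Clec1b*, the receptors for collagen and podoplanin; and *Treml1*, a receptor of the granule membrane. All 9 were among the 27179 genes with counts, and all 9 passed the filter that left 15088 genes for testing.

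The RNA came from femora of 12-week-old female mice, flushed to remove the marrow, on a C57BL/6 background. In 3 libraries the mice were labelled Dmp1Cre.EfnB2f/f: they carried Cre recombinase under the Dmp1 promoter, which is active in osteocytes and late osteoblasts, and both copies of *Efnb2* (ephrin B2) were floxed. The 4 control libraries were from Dmp1Cre mice, littermates or cousins that carry the same Cre without the floxed alleles. The study asked how loss of ephrin B2 from osteocytes changes bone, so the genotype is directed at bone cells and not at megakaryocytes. Libraries are called f/f 1 to f/f 3 and control 1 to control 4 after their labels. The labels give 4 parent crosses. Libraries f/f 1 and f/f 2 share a cross, controls 1 and 2 share another, f/f 3 and control 3 share another again, and control 4 is alone in its cross. Of the bone cells at which the genotype is directed, all 6 osteocyte and all 6 osteoblast markers examined passed the filter.

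*Efnb2* itself was not lower in the libraries labelled f/f. Its level, in CPM (counts scaled to a common library size by TMM), was 17.6, 12.9 and 11.6 in f/f 1 to f/f 3 and 8.35, 7.80, 6.34 and 6.26 in controls 1 to 4. Every library labelled f/f was above every control (log2 fold change 0.96 ± 0.21 SE, edgeR adjusted p = 0.510; two-sided exact permutation test over 35 splits, p = 0.0286, the smallest that 3 against 4 libraries can give). The counts are summed over the whole gene, so they do not show which exons the reads came from. They also come from whole flushed femora, whereas the paper reported loss of *Efnb2* in sorted osteocytes and its presence in other cells. Those sorted cells came from younger mice that also carried a GFP transgene, and were measured by PCR with primers on the targeted region. What lay behind the higher level was not tested. Library totals ranged from 17245556 to 22075778 counts. Controls 1 and 4 stood apart on the first principal component (53.9% of the variance), with scores of 43.9 and 68.7 against -41.4 to -1.70 in the other 5 libraries. Pairs of libraries of one genotype were further apart than counting noise, the chi-square divided by its degrees of freedom being 31.2 to 204.

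Megakaryocyte genes are known to be switched on by GATA1 with its partner FOG1 and by the ETS factor FLI1, and NF-E2 acts late in platelet formation. The promoter windows below lie before the start used for each promoter and are from the 5 members whose promoters hold a GATA word. For *Gp6* and *Gp1ba* that start differs from the edge of the gene's span given further on. The last bases shown for *Gp6* lie inside its span. The stretches of *Gp1ba*, *Gp5*, *Clec1b* and *Gp6* hold GATA words, that of *Gp5* ETS words as well, and that of *Pf4* an ETS word only. They are shown as a description of the promoters. *Clec1b* and *Gp6*, among those shown, were not highest in the library where 7 of the 9 genes peaked, as described further on. A link between these words and the levels was not tested. Each is given 5′ to 3′ on the strand of the gene in GRCm38.p6, the build of mm10, and capitals mark the words searched for on either strand. The GATA words were AGATAA and its variant that begins with a T, and the ETS word was GGAAG.
*Gp1ba*, chr11:70639002-70639101, plus strand: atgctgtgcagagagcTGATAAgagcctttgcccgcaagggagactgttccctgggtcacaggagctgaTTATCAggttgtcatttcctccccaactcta
*Gp5*, chr16:30310802-30310901, minus strand: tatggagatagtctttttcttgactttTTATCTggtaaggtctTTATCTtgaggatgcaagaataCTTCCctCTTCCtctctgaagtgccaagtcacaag
*Pf4*, chr5:90772355-90772434, plus strand: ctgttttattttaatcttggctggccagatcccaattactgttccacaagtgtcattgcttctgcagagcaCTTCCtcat
*Clec1b*, chr6:129397087-129397146, plus strand: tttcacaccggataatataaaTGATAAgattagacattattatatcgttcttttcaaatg
*Gp6*, chr7:4397845-4397904, minus strand: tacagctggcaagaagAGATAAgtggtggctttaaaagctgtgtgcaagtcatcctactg

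In windows of 300 bases, searched on both strands, 5 of the 9 promoters held a GATA word, and 18.6% of all 32851 promoters in the RefSeq table did. *Gp1ba* and *Gp5* each held a pair of GATA words close together. *Clec1b* held another after the start, and the only GATA word of *Pf4* lay after the start, outside the stretch shown. The short ETS word was in 8 of 9 windows, against 71.4% of all promoters. The word TGACTCA, which NF-E2 and AP-1 share, was searched for along with its reverse complement and was in 0 of 9, against 5.2% of all promoters. A match of letters is a description of the window and not a bound site.

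The platelet chemokines were the most abundant of the 9. Compared per kilobase of the counted length, which allows levels of different genes to be set side by side, *Ppbp* stood at 672 ± 174 CPM per kb (SD, n = 7 libraries) and *Pf4* at 512 ± 159 CPM per kb, ranks 82 and 97 of the 15088 genes. *Gp9* followed at 104 ± 40.5 CPM per kb and *Treml1* at 81.1 ± 35.2 CPM per kb, and in all 7 libraries these 4 genes kept this order. *Gp5*, at 58.5 ± 24.8 CPM per kb, and *Clec1b*, at 54.9 ± 18.3 CPM per kb, did not keep theirs: *Gp5* was above *Clec1b* in 3 of 7 libraries. *Clec1b* was in turn above *Gp1bb* (34.1 ± 12.5 CPM per kb) in 5 of 7, and *Gp1bb* above *Gp6* (28.5 ± 8.26 CPM per kb) in 4 of 7, so the order of these neighbours was not the same in every library. *Gp1ba* was lowest in all 7, at 12.7 ± 2.76 CPM per kb. The 4 parts of a single receptor complex thus spanned from 12.7 to 104 CPM per kb in mean level. The counts behind these values ran from 307 to 18633 per library, which gives a counting error of 5.71% at the lowest and 0.733% at the highest.

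**Figure D1:**
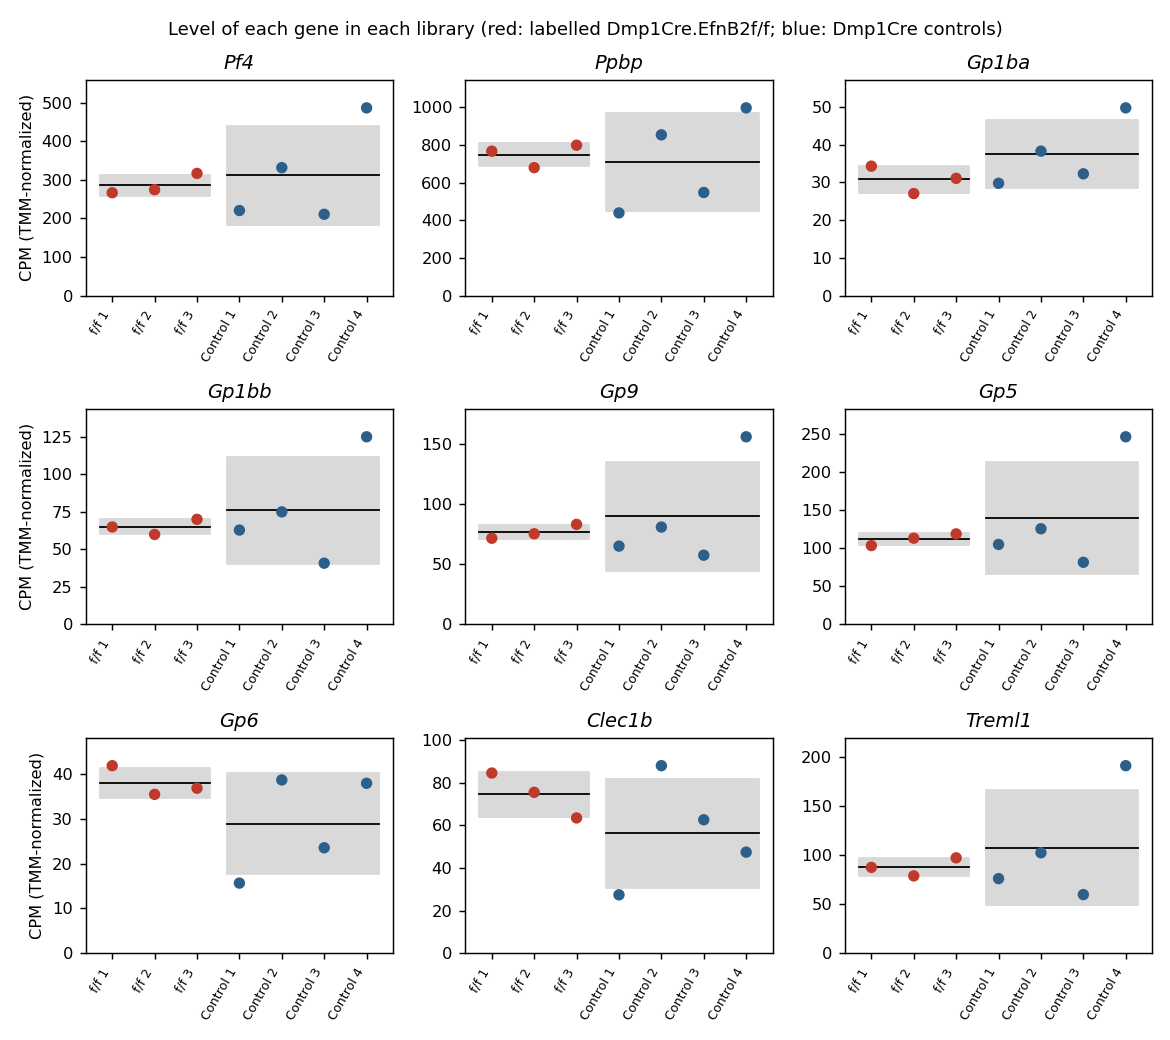
Level of each of the 9 genes (y axis, TMM-normalized CPM from 0) in the 7 libraries (x axis), red for libraries labelled Dmp1Cre.EfnB2f/f and blue for Dmp1Cre controls. Lines are group means and grey bands are 1 SD; in each panel the red points lie closer together than the blue, and control 4 is the highest point in 7 of 9 panels.

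No difference between the genotypes was detected in any of the 9 genes. At an adjusted p under 0.05 in edgeR's quasi-likelihood test, 0 of 9 passed, as did 0 of the 15088 genes (0%). At an unadjusted p under 0.05, 0 of 9 passed, against 9.66% of all genes. The groups did not overlap in 0 of 9, against 11.3% of all genes. DESeq2 called 0 of the 9, limma without weights 0 and limma with library quality weights 1, *Gp1ba*. These tools called 0.477%, 0% and 14.9% of all genes. For 3 of the 9 genes the libraries labelled f/f had the higher mean and for 6 the lower, with log2 fold changes from -0.32 to 0.40 and a median of -0.22, where the median of all tested genes was 0.01.

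The chemokines gave nearly the same mean in both groups. *Pf4*, platelet factor 4, binds heparin and other polyanions. It lies on chromosome 5 from 90772435 to 90773383, and its level was 267, 274 and 317 CPM in f/f 1 to f/f 3 and 220, 332, 211 and 486 CPM in controls 1 to 4. The values labelled f/f all fell inside the range of the controls, of which control 4 was highest and control 3 lowest (log2 fold change -0.13 ± 0.31 SE, edgeR adjusted p = 0.856). *Ppbp*, pro-platelet basic protein, is cut to give the neutrophil attractant CXCL7. It starts at 90768518 on the same chromosome and ends 2371 bases short of *Pf4*, and its level was 766, 679 and 798 CPM in f/f 1 to f/f 3 and 439, 853, 547 and 996 CPM in controls 1 to 4. Here too the controls lay on both sides of the libraries labelled f/f, with control 1 lowest (log2 fold change 0.08 ± 0.30 SE, edgeR adjusted p = 0.915). The ratio of *Ppbp* to *Pf4* counts was 1.99 in control 1 and 2.05 in control 4, and between 2.48 and 2.87 in the other 5 libraries.

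The 4 genes of the GPIb-IX-V complex, which tethers platelets to von Willebrand factor on damaged vessel walls, all had lower means in the libraries labelled f/f. *Gp1ba*, on chromosome 11 from 70639102 to 70643986, encodes the chain that binds von Willebrand factor. Its level was 34.3, 27.0 and 31.1 CPM in f/f 1 to f/f 3 and 29.7, 38.3, 32.3 and 49.7 CPM in controls 1 to 4. Library f/f 2 was the lowest of the 7 and the groups overlapped (log2 fold change -0.28 ± 0.21 SE, edgeR adjusted p = 0.576). *Gp5*, on chromosome 16 from 30307685 to 30310781, encodes the thrombin-cleaved part of the complex, and had 104, 114 and 119 CPM in f/f 1 to f/f 3 and 105, 126, 81.8 and 247 CPM in controls 1 to 4. Control 4 alone stood well above the rest (log2 fold change -0.32 ± 0.35 SE, edgeR adjusted p = 0.686). *Gp9*, on chromosome 6 from 87776131 to 87779786, encodes a small chain needed for the complex to reach the surface, and had 71.7, 75.4 and 83.2 CPM in f/f 1 to f/f 3 and 65.1, 81.0, 57.6 and 156 CPM in controls 1 to 4. *Gp1bb*, the chain linked to GPIb alpha by disulphide bonds, lies on chromosome 16 from 18620319 to 18622403 and had 64.9, 59.9 and 70.0 CPM in f/f 1 to f/f 3 and 62.9, 75.0, 40.8 and 125 CPM in controls 1 to 4. Both repeated the order of *Gp5* at the ends, with control 4 highest and control 3 lowest, at log2 fold changes of -0.23 ± 0.33 SE for *Gp9* and -0.22 ± 0.33 SE for *Gp1bb*. Of the 2085 bases that *Gp1bb* spans, 593 are shared with the neighbouring septin gene *Sept5*, and how reads there were assigned is uncertain. *Sept5* had 32.8, 37.1 and 36.9 CPM in f/f 1 to f/f 3 and 53.1, 40.6, 39.6 and 59.4 CPM in controls 1 to 4. Its groups did not overlap (log2 fold change -0.44 ± 0.19 SE, edgeR adjusted p = 0.510), and its part in the level of *Gp1bb* was not tested.

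*Treml1*, which encodes TLT-1, a receptor of alpha granule membranes that appears on the surface of activated platelets, lies on chromosome 17 from 48359916 to 48367176. It had 87.5, 78.8 and 97.2 CPM in f/f 1 to f/f 3 and 76.0, 102, 59.8 and 191 CPM in controls 1 to 4. It followed *Gp5* and *Gp9*, with control 4 highest, control 3 lowest and overlapping groups (log2 fold change -0.29 ± 0.36 SE, edgeR adjusted p = 0.726).

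The receptors that signal through an immunoreceptor tyrosine motif, GPVI and CLEC-2, had higher means in the libraries labelled f/f. *Gp6*, on chromosome 7 from 4362853 to 4397851, encodes the collagen receptor GPVI. Its level was 41.8, 35.4 and 36.8 CPM in f/f 1 to f/f 3 and 15.6, 38.6, 23.5 and 37.9 CPM in controls 1 to 4. The libraries labelled f/f were level with controls 2 and 4 and above controls 1 and 3 (log2 fold change 0.39 ± 0.30 SE, edgeR adjusted p = 0.587). *Clec1b*, on chromosome 6 from 129397297 to 129405413, encodes the podoplanin receptor CLEC-2, and had 84.6, 75.5 and 63.5 CPM in f/f 1 to f/f 3 and 27.5, 88.0, 62.7 and 47.5 CPM in controls 1 to 4. Control 2 was highest and control 1 lowest, and control 4, the highest library for most of the set, was second lowest here (log2 fold change 0.40 ± 0.34 SE, edgeR adjusted p = 0.619). Without control 1 the log2 fold changes were 0.19 for *Gp6* and 0.17 for *Clec1b*, and without control 2 that of *Clec1b* was 0.70, again short of the adjusted threshold. The span of *Clec1b* lies inside that of *Clec12b*, whose own mean stayed low, at 0.608 CPM in the libraries labelled f/f (SD 0.127, n = 3) and 0.912 CPM in the controls (SD 0.624, n = 4).

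**Figure D2:**
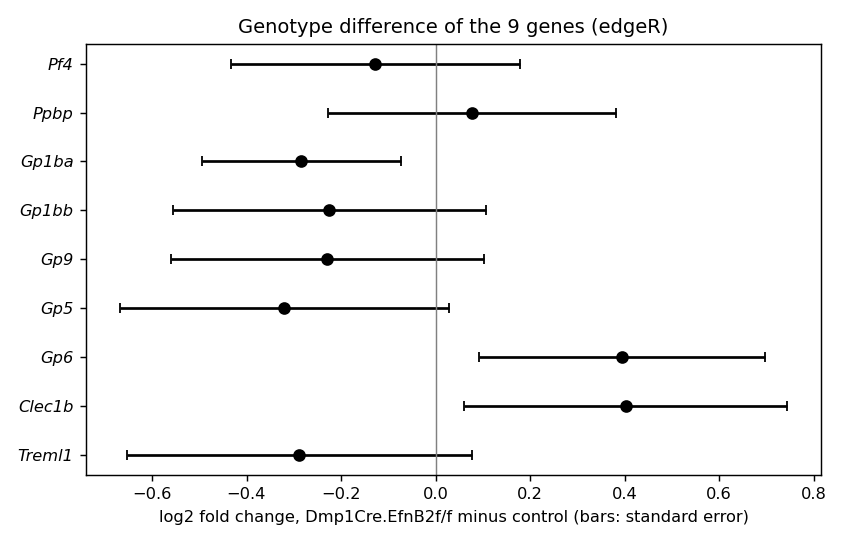
Log2 fold change of each gene (x axis, libraries labelled Dmp1Cre.EfnB2f/f minus controls) with its standard error from edgeR, 3 against 4 libraries. The values run from -0.32 for Gp5 to 0.40 for Clec1b, and 0 of 9 passed the test.

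The spread was larger among the controls than among the libraries labelled f/f for all 9 genes. For 7 of the 9, every value labelled f/f lay within the range of the controls. *Gp1ba* and *Gp6* were the exceptions, with a single library outside it, f/f 2 below and f/f 1 above. Two-sided exact permutation tests of the 9 genes gave p from 0.286 to 0.971. The comparison inside the shared cross has 1 library on each side and so no test: f/f 3 was above control 3 in 8 of 9 genes, by 0.02 for *Clec1b* to 0.78 for *Gp1bb* on the log2 scale, and below it by 0.05 in *Gp1ba*. Control 3 was also the lowest of the 7 libraries for 5 of the 9 genes. Without control 4, the median log2 fold change of the 9 was 0.17, and without controls 1 and 4, a choice made after seeing the data, it was 0.11. The sign of the median in the full set therefore rested on control 4.

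**Figure D3:**
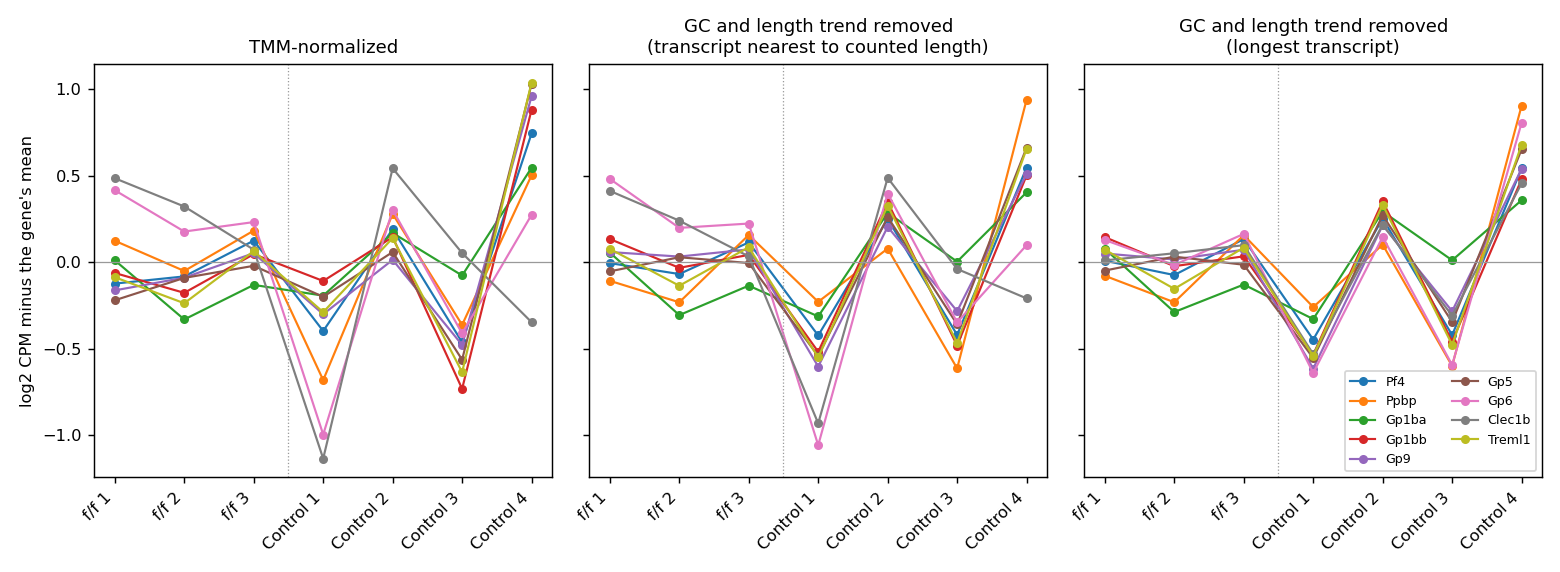
Log2 CPM of each gene minus its own mean (y axis) in the 7 libraries (x axis), as TMM-normalized values and after taking out the trend of a library's values with GC content and length, with GC content taken from the transcript nearest to the counted length or from the longest transcript. Control 4 was highest for 7, 7 and 9 of the 9 genes from left to right; in the left panel Clec1b and Gp6 drop in control 1 far below the other lines.

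Between libraries, 7 of the 9 genes had the same highest library. The chemokines, the GPIb-IX-V genes and *Treml1* were all highest in control 4, at 0.50 to 1.04 above each gene's own mean on the log2 scale. Within this group the ratio of *Gp9* to *Gp5* counts ranged 1.14-fold over the 7 libraries, and that of *Treml1* to *Gp5* 1.21-fold. Others were looser: the ratio of *Gp1ba* to *Gp5* counts ranged 1.96-fold and that of *Ppbp* to *Gp5* 1.83-fold. *Ppbp*, *Gp6* and *Clec1b* were low against *Gp5* in the same libraries, controls 1 and 4. The ratio of *Ppbp* to *Gp5* was 4.17 and 4.03 there and 5.98 to 7.38 in the other 5 libraries, and that of *Gp6* to *Gp5* was 0.149 and 0.153 against 0.287 to 0.403 in the others. The ratio of *Clec1b* to *Gp5* counts was 0.815, 0.665 and 0.533 in f/f 1 to f/f 3 and 0.261, 0.699, 0.766 and 0.192 in controls 1 to 4, a range of 4.24-fold. Controls 1 and 4, low in this ratio, are the libraries that the first principal component set apart. In these bulk samples, fewer cells of a type and less RNA per cell cannot be told apart.

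The differences between these controls also moved with base composition, across all genes. Over 14423 genes with a known transcript, the log2 ratio of control 1 to control 2 had a Spearman correlation of 0.65 with GC content, and that of control 4 to control 2 of 0.67. These are descriptions across genes, which are not independent replicates, and each ratio compares a pair of libraries. Among the 9 genes, the counted-length transcript held 42.4% GC in *Ppbp*, 46.7% in *Clec1b* and 62.0% in *Gp1bb*, and the Spearman correlation of GC content with the ratio of control 1 to control 2 was 0.90 (n = 9 genes). The ratio itself was lowest for *Clec1b*, at -1.68 on the log2 scale, and for *Gp6*, at -1.30, and lay between -0.96 and -0.25 for the other 7. GC content was first taken from the longest transcript of each gene, in which *Clec1b* has 37.2% and *Gp6* 43.1%, and the correlation was then 0.97. It was changed to the transcript nearest in length to the counted one because the longest transcripts of *Clec1b* and *Gp6*, of 4347 and 5900 bases, are far from the 1170 and 1152 bases counted, and the results of the first choice had been seen by then.

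How far the 9 profiles come together depends on that choice. The distance of a gene from the mean profile of the 9, as a root mean square over the 7 libraries on the log2 scale, was largest for *Clec1b*, at 0.54. When the trend of each library with GC content and length was taken out by the counted-length transcripts, it was still largest for *Clec1b*, at 0.35, and the median over the 9 genes went from 0.21 to 0.11. With the longest transcripts, *Clec1b* came to 0.08, the largest was *Gp1ba* at 0.22, and all 9 genes were highest in control 4. Under either choice 8 of the 9 genes were lowest in control 1, and 0 of 9 passed the test between genotypes. Whether GC content accounts for the position of *Clec1b* and *Gp6* was not tested.

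**Figure D4:**
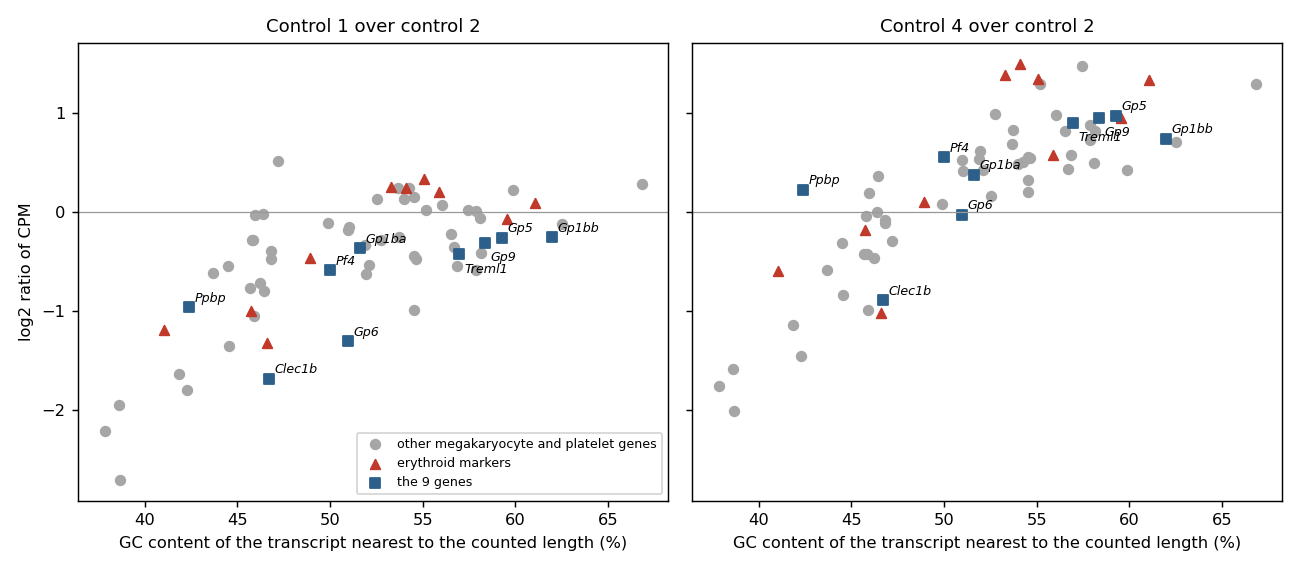
Log2 ratio of CPM between pairs of control libraries (y axis) against GC content of the transcript nearest to the counted length (x axis, percent), for the 9 genes (blue squares), 48 other megakaryocyte and platelet genes (grey) and 10 erythroid markers (red). Genes of low GC content lie lowest in both panels; Clec1b is the lowest of the 9 in both.

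The 10 genes outside the set whose profile lay nearest to the mean profile of the 9 were *Alox12*, *F2rl2*, *Tubb1*, *Gnaz*, *Lat*, *F2rl3*, *Itga2b*, *Proser2*, *Vwf* and *Slc6a4*, at a root mean square difference of 0.07 to 0.18 on the log2 scale over 7 libraries, out of 6757 genes that varied at least as much as that profile. *Alox12*, the platelet 12-lipoxygenase, was nearest, with 138, 131 and 134 CPM in f/f 1 to f/f 3 and 98.2, 151, 104 and 232 CPM in controls 1 to 4. Like *Ppbp*, it was highest in control 4 and lowest in control 1.

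The wider platelet programme was followed in 48 further genes of 5 lists, which hold the transcription factors, adhesion receptors, agonist receptors, signalling proteins and granule genes of the lineage. At an adjusted p under 0.05 in edgeR, 0 of 48 passed. At an unadjusted p under 0.05, 3 were lower and 0 higher in the libraries labelled f/f, where 9.66% of all genes passed. The means were lower for 33 and higher for 15, with a median log2 fold change of -0.10. Of all tested genes, 48.7% had a lower mean in the libraries labelled f/f. Of the 48, 31 were highest in control 4, 9 in control 2, 6 in f/f 1 and 2 in f/f 3. The part of control 4 in the direction of these means was not tested. For 5 of the 48 the groups stood apart without overlap, a share near that of all genes, and all 5 were lower in the libraries labelled f/f.

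The transcription factors had the lowest median of the 5 lists, -0.60 over 8 genes, of which 6 had a lower mean. *Nfe2*, whose product drives the last steps of platelet formation, had 108, 120 and 146 CPM in f/f 1 to f/f 3 and 173, 164, 151 and 323 CPM in controls 1 to 4. Its groups did not overlap, although f/f 3 and control 3 were close (log2 fold change -0.70 ± 0.29 SE, edgeR adjusted p = 0.510). *Gata1*, *Zfpm1* (FOG1), *Tal1* and *Gfi1b*, which erythroid cells use as well, had log2 fold changes of -0.69, -0.77, -0.63 and -0.57 and overlapping groups. Like *Nfe2*, they were highest in control 4: *Gata1* had 247 CPM there and 102, 101 and 90.7 CPM in controls 1 to 3. *Fli1*, *Runx1* and *Meis1*, at 0.15, -0.05 and 0.32, stood apart from *Gata1*, *Zfpm1*, *Tal1* and *Gfi1b* in value. They also differed in GC content, at 44.5% to 46.4% against 52.8% to 66.8%. The part of control 4 or of GC content in these values was not tested. *Itga2b* and *Itgb3*, the fibrinogen receptor of platelets, had log2 fold changes of -0.14 ± 0.33 SE and -0.005 ± 0.28 SE, each with overlapping groups.

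Downstream of GPVI and CLEC-2, 10 of 11 signalling genes had a lower mean in the libraries labelled f/f, against 48.7% of all tested genes. Their log2 fold changes ran from -0.38 to 0.09, with a median of -0.18. Of the 11, 7 were highest in control 4 and 4 in control 2. *Fcer1g*, the signalling chain that pairs with GPVI, had 83.8, 87.5 and 87.3 CPM in f/f 1 to f/f 3 and 118, 108, 93.7 and 121 CPM in controls 1 to 4, with groups that did not overlap (log2 fold change -0.35 ± 0.15 SE, edgeR adjusted p = 0.510). *Vav1*, an exchange factor of the same pathway, had groups that did not overlap at -0.37 ± 0.18 SE, and *Lat*, the adaptor of platelets and T cells, had -0.003 ± 0.32 SE. Among the granule genes, *Nbeal2*, needed to form alpha granules, and *F13a1*, the clotting factor XIII A chain, had groups that did not overlap, at -0.52 ± 0.19 SE and -0.41 ± 0.18 SE. *Fcer1g*, *Vav1*, *F13a1* and *Nfe2* are also expressed in myeloid cells, whose markers are given next.

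The 9 genes had similar sums in both groups. The libraries labelled f/f held 1519 CPM of the 9 genes together (SD 98.4, n = 3) and the controls 1557 CPM (SD 605, n = 4). *Pf4* and *Ppbp* made up most of these sums, at 1034 ± 80.7 CPM against 1021 ± 383 CPM. The GPIb-IX-V genes summed to 285 ± 16.3 CPM against 343 ± 162 CPM, and *Gp6* with *Clec1b* to 113 ± 13.1 CPM against 85.3 ± 34.1 CPM. Summed over 10 neutrophil and precursor markers, the level was 14198 ± 1686 CPM against 19093 ± 1380 CPM, and over 10 erythroid markers 4477 ± 948 CPM against 7883 ± 3104 CPM, each without overlap of the groups. The 6 monocyte and macrophage markers summed to 775 ± 6.63 CPM against 979 ± 122 CPM, also without overlap. All 10 neutrophil and all 10 erythroid markers had a lower mean in the libraries labelled f/f, against 48.7% of all tested genes. At an adjusted p under 0.05 in edgeR, 0 of either passed. At an unadjusted p under 0.05, 4 and 5 did, against 9.66% of all genes. Their part in the values of *Fcer1g*, *Vav1*, *F13a1*, *Nbeal2* and *Nfe2* was not tested.

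**Figure D5:**
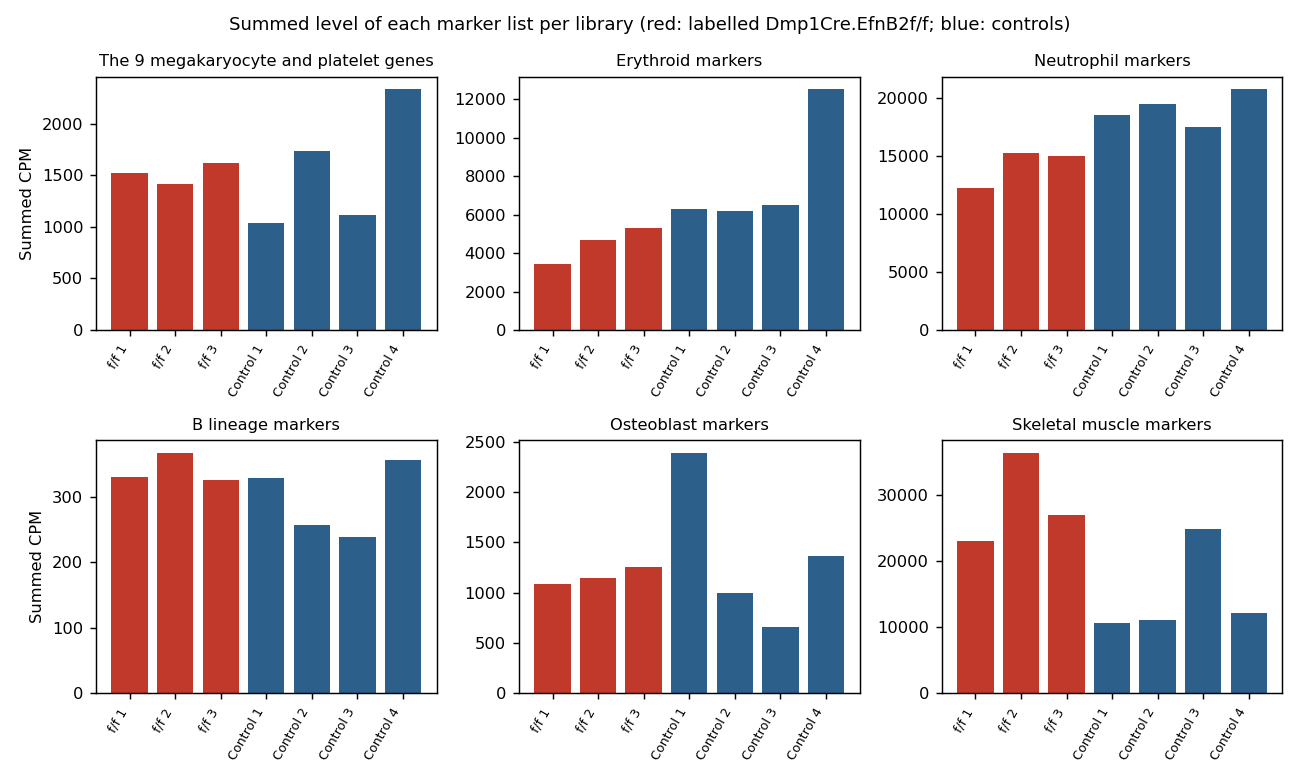
Summed CPM (y axis, from 0) of the 9 genes and of 5 marker lists in each library (x axis), red for libraries labelled Dmp1Cre.EfnB2f/f and blue for controls. The 9 genes run from 1041 in control 1 to 2337 in control 4 with the groups overlapping, whereas the red bars of the erythroid and neutrophil panels all lie below the blue.

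The ratio of the summed 9 genes to the summed erythroid markers was 0.442, 0.303 and 0.305 in f/f 1 to f/f 3 and 0.166, 0.279, 0.172 and 0.186 in controls 1 to 4. The groups did not overlap in this ratio, which was formed after the values were seen and is given without a test. Its numerator is mostly *Pf4* and *Ppbp*. Against neutrophil markers, monocyte and macrophage markers and B lineage markers the groups overlapped. Control 4 held the highest sum of both the 9 genes and the erythroid markers, at 2337 and 12535 CPM. Control 1, the lowest library for the 9 genes, was within the range of controls 2 and 3 for the erythroid markers, at 6286 CPM. Control 1 also had the highest summed osteoblast markers, at 2394 CPM against 656 to 1363 CPM in the other 6 libraries. Skeletal muscle markers summed to 28836 ± 6882 CPM in the libraries labelled f/f and 14710 ± 6812 CPM in the controls, with control 3 among the former.

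Ligands and partners of the 9 were also present. *Col1a1*, the collagen chain that GPVI binds in bone and vessel wall, had 6896, 8312 and 12522 CPM in f/f 1 to f/f 3 and 37661, 7043, 7927 and 18421 CPM in controls 1 to 4, with control 1 highest and the groups overlapping. *Pdpn*, the ligand of CLEC-2 and a marker of young osteocytes and stroma, had 5.14, 5.34 and 5.65 CPM in f/f 1 to f/f 3 and 10.7, 2.02, 2.71 and 4.54 CPM in controls 1 to 4, again highest in control 1, where *Clec1b* was lowest. *Itgam*, the alpha chain of the leukocyte integrin that binds GPIb alpha, did not overlap between groups, with a mean of 296 CPM in the libraries labelled f/f (SD 34.0, n = 3) and of 491 CPM in the controls (SD 23.9, n = 4). It did not pass the test (log2 fold change -0.73 ± 0.18 SE, edgeR adjusted p = 0.510). *Thpo*, the thrombopoietin gene, was barely detected, with 14, 15 and 24 counts in f/f 1 to f/f 3 and 12, 6, 11 and 5 counts in controls 1 to 4. After scaling for library size its groups did not overlap (log2 fold change 1.02 ± 0.40 SE, edgeR adjusted p = 0.510). *Cxcr2*, the neutrophil receptor for CXCL7, and *Cxcr3*, a receptor named for *Pf4*, had -0.33 ± 0.20 SE and -0.35 ± 0.23 SE with overlapping groups.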

How the data were processed

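RNA from marrow-flushed femora of 7 mice was sequenced as paired-end reads. The authors aligned them to mm10 with Rsubread and assigned them to genes with featureCounts on Rsubread's inbuilt annotation, and they deposited raw counts per gene, without normalization or filter. The submitters' processing notes name bcl2fastq 2.17.1.14 and featureCounts. The versions of Rsubread and featureCounts and the strand setting are not given in the sources used here. Of the deposited genes, 25275 of 27179 had an entry in RefSeq's table for GRCm38.p6, which gave positions and promoters. All 9 members matched.

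The filter kept the 16302 genes that reached 0.65 CPM in 3 or more libraries. After the study's list of classes, immunoglobulin segments (179), genes without a symbol (184, standing in for its obsolete gene IDs), pseudogenes (325), predicted genes (523), ribosomal RNA genes (2) and the Y and Xist class (1) were then left out, which left 15088. The test was the robust quasi-likelihood test of edgeR 4.0.16 after TMM scaling, run in R 4.3.3. P-values were adjusted over all tested genes (Benjamini-Hochberg), with a threshold of 0.05. SE is the standard error of the log2 fold change. The study blocked on the day of collection, with a sample of each genotype on the later day and the others on the earlier. The labels do not give the day of each library, so it is not in the model and its part in any difference was not tested. Single genes were also compared, on log2 of CPM plus 0.01, by an exact permutation test, two-sided, over the 35 ways of dividing 7 libraries into 3 and 4. P-values measure the spread between these animals only. Neither the main test nor the exact test takes account of the parent crosses. Only the cross of f/f 3 and control 3 holds both genotypes, so in the other libraries genotype and parent cross cannot be told apart. Log2 profiles used CPM with a prior count of 2. Alternatives were DESeq2 1.42.0, limma 3.58.1 with and without quality weights, other scalings and filters, all gene classes kept, blocks for replicate number or parent cross, and each library left out. Of these, limma with quality weights is nearest to the study's own test, which also blocked on the day of collection. Leaving out controls 1 and 4 together and taking out the trend of each library with GC content and transcript length (14430 of 15088 genes with a GENCODE M21 transcript), under 2 definitions of the transcript, were added after seeing the data.

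Tests were tried on simulated counts. The members, the gene lists and the rule for naming genes were chosen with earlier results of these data known. Named are the 9 members, *Efnb2*, genes overlapping a member, list genes whose groups do not overlap or that are a ligand, receptor or signal of a member, and the 10 genes of nearest profile. The table of protein sequences was not used here.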

Additional observations from a re-analysis of the deposited data

How the results depend on the processing

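Across 20 alternatives, 0 of the 9 genes passed the threshold in 19. With limma and quality weights 1 did, *Gp1ba* (log2 fold change -0.40, adjusted p = 0.0496; its adjusted p otherwise ran up to 1.00). Over all genes, the count past the threshold was 0 with edgeR (1457 at an unadjusted p under 0.05), 72 with DESeq2, 2254 with limma and quality weights and 0 with limma without them (1607 at an unadjusted p); the cause was not tested. Leaving out single libraries gave 0 to 2 genes, with 2 without f/f 3 and 2 without control 4, and leaving out controls 1 and 4 together gave 2.

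The direction of single members was not stable, and the cause was not tested. With limma and quality weights *Ppbp* turned to -0.13, *Gp9* to 0.026 and *Gp5* to 0.031, and without weights *Pf4* to 0.11. With the parent cross as a block, which leaves f/f 3 against control 3, *Pf4* turned to 0.59, *Gp1bb* to 0.78, *Gp9* to 0.53, *Gp5* to 0.54 and *Treml1* to 0.70, and the median of the 9 moved to 0.54. Without controls 1 and 4, *Pf4* turned to 0.080, *Gp1bb* to 0.17, *Gp9* to 0.15, *Gp5* to 0.11, *Clec1b* to -0.012 and *Treml1* to 0.12. With the GC and length trend removed, *Ppbp* turned to -0.21, *Gp1bb* to 0.012 and *Gp9* to 0.034 by counted-length transcripts, and to -0.19, 0.022 and 0.014 by longest transcripts, where *Gp6* was 0.04 and *Clec1b* 0.04. With limma and quality weights *Clec1b* was 0.03.

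Leaving out single libraries gave ranges of -0.27 to 0.17 for *Pf4*, -0.095 to 0.28 for *Ppbp*, -0.43 to 0.12 for *Gp1bb*, -0.39 to 0.17 for *Gp9*, -0.50 to 0.10 for *Gp5*, -0.49 to 0.14 for *Treml1*, 0.19 to 0.57 for *Gp6*, 0.17 to 0.70 for *Clec1b*, -0.38 to -0.12 for *Gp1ba*, and -0.35 to 0.17 for the median of the 9. *Ppbp* turned without control 1 or control 3, and *Pf4*, *Gp1bb*, *Gp9*, *Gp5* and *Treml1* without control 4. *Gp1ba* stayed lower and *Gp6* higher in all 20 alternatives.

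The replicate numbers are shared between the groups but do not pair the libraries: the deviations of same-numbered libraries correlated at -0.14, 0.06 and -0.42. With the replicate block 1 gene passed the threshold, and *Pf4* turned to 0.20, *Gp1bb* to 0.17, *Gp9* to 0.19, *Gp5* to 0.12 and *Treml1* to 0.18.

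A p that misses the threshold with 3 and 4 libraries does not show that these genes did not differ.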
